A study of Mus musculus with 16 samples.

Results

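The genotype difference in Tsc2-deleted podocytes was compared between mice with and without rapamycin, over all 16 arrays of the series, 4 in each of 4 groups. The quantity examined was the interaction, which is the difference between Tsc2Δpodocyte + Rapamycin and Tsc2flox/flox + Rapamycin minus the difference between Tsc2Δpodocyte and Tsc2flox/flox. Tsc2Δpodocyte mice carried homozygous floxed Tsc2 alleles and a Cre transgene driven by a promoter that is active in podocytes, the epithelial cells of the glomerular filter. Tsc2flox/flox mice carried the same floxed alleles without Cre, so the alleles were common to all 4 groups and Cre alone was not separated from loss of Tsc2. The mice were males on the Jcl:ICR background, 4 weeks old without treatment and 5 weeks old after 1 week of rapamycin injections. RNA came from primary podocytes grown out of isolated glomeruli, and the culture medium described by the study names no rapamycin, so the drug was given to the animals and not, as far as stated, to the cells. The labels do not say that the 4 samples of a group came from separate mice, so p-values measure the spread between these samples. The untreated groups filled 1 slide and the treated groups the other. Treated minus untreated levels within a genotype therefore cannot be told apart from age or slide, whereas a shift shared by both genotypes of a slide cancels in the interaction. An effect of age or slide that differs between the genotypes does not cancel, and it cannot be told apart from an effect of rapamycin. On each slide Tsc2Δpodocyte filled row 1 and Tsc2flox/flox row 2, and the row is therefore inseparable from the genotype.

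TSC2, with TSC1, is the brake on the small GTPase Rheb, and Rheb switches on the kinase complex mTORC1 on the lysosome. mTORC1 drives protein, lipid and nucleotide synthesis, restrains autophagy, and raises glycolytic, pentose phosphate and sterol genes through factors such as HIF1 and SREBP. Rapamycin binds FKBP12 and blocks part of the activity of mTORC1. A difference made by mTORC1 activity that the drug reverses could be nearer 0 with rapamycin, and a difference that the drug does not reach could stay. Whether this holds for any gene was not tested. The cells grew in medium that names no rapamycin, and age and slide changed together with the drug.

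Levels are given as the log2 of the signal minus the log2 of the 75th percentile of the array, and differences are on that log2 scale. Tsc2 itself was lower in Tsc2Δpodocyte on both slides. Its level was 3.61, 3.40, 2.95 and 3.71 in Tsc2flox/flox and 2.07, 1.99, 2.31 and 1.93 in Tsc2Δpodocyte. On the treated slide it was at 3.65, 3.47, 2.83 and 2.93 in Tsc2flox/flox and 2.07, 2.73, 2.05 and 2.09 in Tsc2Δpodocyte. The genotypes did not overlap on either slide. The difference was -1.35 ± 0.22 (SE, n = 4 in each group) untreated and -0.99 ± 0.22 with rapamycin, with adjusted p of 0.00097 and 0.0124 in limma with Benjamini-Hochberg adjustment. The interaction was 0.36, with a 95% interval from -0.29 to 1.01. Whether the probes lie within the deleted exons was not examined, and the remaining signal was about 0.393 and 0.504 of the control signal.

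The cultures held podocyte markers throughout, with other glomerular cell types beside them. Of 8 podocyte markers 7 were well above background on all 16 arrays and Nphs1 on 15, and their mean level lay between 1.16 and 2.98. The 10 endothelial markers had means from -2.65 to 0.55 in Tsc2flox/flox and from -1.66 to 0.55 in Tsc2Δpodocyte, against -2.91 to -1.83 over both treated groups. Endothelial signal thus differed mainly between slides and between untreated arrays, and none of the 10 markers passed in either genotype comparison. The tubule markers Slc34a1 and Umod were not well above background on any array, and Slc12a1 was so on 2. The other tubule markers, Lrp2, Aqp2, Cdh16 and Cdh1, were well above background on all 16 arrays, with Cdh16 between 0.86 and 4.57. The smooth muscle gene Acta2 was bright on every array, between 7.93 and 8.56.

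**Figure D1:**
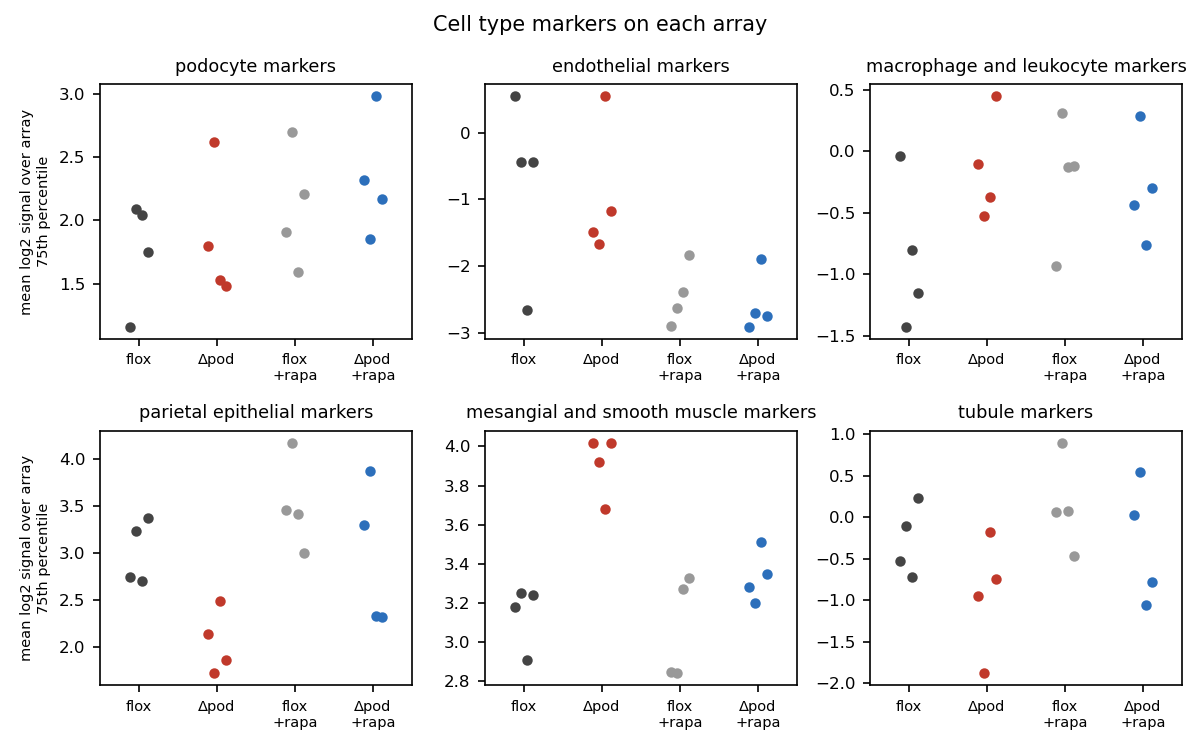
Mean log2 signal over the 75th percentile of the array for the markers of 6 cell types, with a point for each of the 16 arrays in the 4 groups (flox is Tsc2flox/flox, Δpod is Tsc2Δpodocyte, rapa is rapamycin). Endothelial markers spread from -2.65 to 0.55 on untreated arrays and stay at or below -1.83 on treated ones, and mesangial and smooth muscle markers lie between 3.68 and 4.02 in untreated Tsc2Δpodocyte, above the other groups.

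Almost no feature passed the test of the interaction. Of 27579 probes tested, 1 had an adjusted p under 0.05 and at least a 1.5-fold change of the ratio, which is 0.00363% of the probes, and 0 of 14094 genes did when each gene was read by its brightest probe. At an unadjusted p under 0.05 there were 2030 probes, or 7.36%. The next smallest adjusted p was 0.566. With the normexp background correction 35 probes passed, 14 genes above 0 and 6 below 0, and under the other settings of normalization, filter and model the count was 0 or 1. Leaving out Tsc2Δpodocyte replicate 1 gave 3 probes, and leaving out any other array gave 0 or 1.

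The precision behind these counts was moderate. The standard error of the interaction had a median of 0.201 over genes, and 0.12 and 0.529 at the 10th and 90th percentiles, so a typical 95% interval reached 0.43 to either side. The interval lay within 1.5-fold in both directions, that is within ±0.585, for 6510 genes (46.2%). For the other genes a change of the genotype difference by 1.5-fold was not excluded by the interval.

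The single probe that passed is annotated with the transcript AK148502 and could not be matched to a gene. Its level was -4.22, -4.44, -4.28 and -4.40 in Tsc2flox/flox and -3.25, -2.97, -3.10 and -3.33 in Tsc2Δpodocyte. After rapamycin it was at -4.09, -4.22, -4.01 and -4.03 in Tsc2flox/flox and -4.14, -4.64, -4.04 and -4.24 in Tsc2Δpodocyte. The untreated genotypes were apart and the treated ones overlapped, with untreated Tsc2Δpodocyte the only group that stood out. The probe was dim, and in untreated Tsc2flox/flox only 3 arrays were well above background. The difference went from 1.17 to -0.18, an interaction of -1.35 ± 0.17 (SE) with an adjusted p of 0.0463. The adjusted p was above 0.05 under 6 other settings and on leaving out most arrays, as given in the section on processing.

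**Figure D2:**
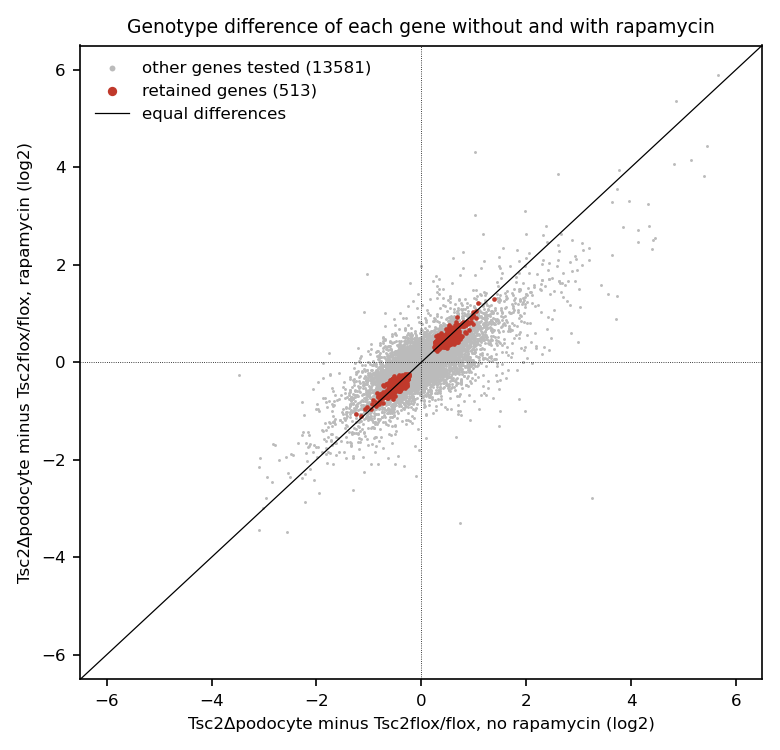
Each point is a gene, read by its brightest probe, with the genotype difference without rapamycin on the x axis and with rapamycin on the y axis, both in log2. Most points with large differences lie on the same side of 0 on both axes. The 513 retained genes in red lie close to the line of equal differences, which follows from the rule that picked them.

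Most genotype differences seen without rapamycin pointed the same way with it. At an adjusted p under 0.05, 1450 genes (10.3%) were higher and 1297 (9.20%) lower in Tsc2Δpodocyte without treatment. With rapamycin 874 (6.20%) were higher and 701 (4.97%) lower. The 1055 genes that passed on both slides were 38.4% of the untreated list and 67.0% of the rapamycin list, and all 1055 had the same sign. The 2 comparisons share no array. Of the 2747 genes that passed untreated, 2620 (95.4%) had the same sign with rapamycin, and the median ratio of the rapamycin difference to the untreated difference was 0.642. Of the 1575 genes that passed with rapamycin, 1537 (97.6%) had the same sign untreated, and the median ratio of the untreated to the rapamycin difference was 0.907. Each of these ratios is lowered by choosing genes on its denominator. Over all 14094 genes the spread of the differences (median absolute deviation) was 0.335 untreated and 0.285 with rapamycin, and the differences correlated at r = 0.746 and rho = 0.66 across genes, which are not independent replicates.

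A difference was counted as retained where both genotype comparisons had an adjusted p under 0.05 with the same sign and the 95% interval of the interaction lay within 1.5-fold. By this rule 513 genes (3.64%) were retained, 277 higher and 236 lower in Tsc2Δpodocyte. Another 542 genes passed both comparisons with an interval that reached beyond 1.5-fold. A retained gene can have differences smaller in size than the 1.5-fold margin of 0.585. For such a gene the rule shows the same sign on both slides, and not that the size stayed. The count of 513 depends on the precision of the fit: it was 339 without Tsc2Δpodocyte replicate 4, 272 and 321 without Tsc2Δpodocyte + Rapamycin replicates 1 and 3, and 248 and 302 without Tsc2flox/flox + Rapamycin replicates 3 and 4.

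The retained genes with the smallest p in their weaker comparison were D5Ertd605e, Tnip1, Bach2, Hars2, Limk2, Mex3b, Ang and Minar2. Tnip1, which binds A20 and restrains NF-kB, was at 4.25, 4.15, 4.44 and 4.12 in Tsc2flox/flox and 4.99, 5.26, 4.98 and 5.13 in Tsc2Δpodocyte. Under rapamycin the levels were 4.22, 4.23, 4.19 and 4.12 in Tsc2flox/flox and 4.97, 4.95, 5.14 and 4.88 in Tsc2Δpodocyte. The genotypes were apart by about the same step on both slides, 0.85 and 0.80, and the interaction of -0.051 had an interval from -0.33 to 0.23. The transcriptional repressor Bach2 was lower in Tsc2Δpodocyte on both slides. It was at -2.61, -2.61, -2.59 and -2.31 in Tsc2flox/flox against -3.70, -3.67, -3.83 and -3.93, and with rapamycin at -2.52, -2.31, -2.08 and -1.93 against -3.24, -3.11, -3.37 and -3.33. The differences were -1.25 and -1.05.

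Limk2, a kinase of the actin-severing factor cofilin, was higher by 1.08 untreated and by 1.22 with rapamycin. Mex3b, an RNA-binding protein, had differences of -1.07 and -0.96, and Hars2, the mitochondrial histidyl-tRNA synthetase, of -0.65 and -0.66. D5Ertd605e was higher by 1.39 and 1.30, and Minar2 by 1.05 and 0.90, although the other probe of Minar2 gave an interaction of -0.54. Ang, a secreted ribonuclease, had fitted differences of 0.95 and 0.90, but it was not well above background on any array of Tsc2flox/flox + Rapamycin, so the treated difference is bounded as at least 1.47-fold higher. Of 48 retained genes named by the rule given with the processing, 9 stayed retained under every alternative run, among them Tnip1 and Mex3b. Bach2 stayed so under 11 of 25 and Limk2 under 13. Among retained genes described below, Cyp51 did so under 11 and Abcc1 under 12.

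The functions were then read from 54 gene lists, each with its median difference and its counts. Of 24 lists with an untreated median of at least 0.3 in size, 22 kept the sign with rapamycin and 21 were nearer 0. Of 15 lists with a rapamycin median of at least 0.3, 10 were farther from 0 untreated. The lists were chosen with the untreated differences known, and the untreated difference is a term of the interaction, so these counts describe the lists and test nothing. No list had a member that passed the interaction test. For comparison, over all genes the median interaction was 0.0099, 48.3% of genes were below 0, and 3.38% and 4.01% had an unadjusted p under 0.05 below and above 0. Of all genes 10.3% were higher and 9.20% lower untreated, and 6.20% and 4.97% with rapamycin. The counts of each list are to be read beside these shares. Fewer members passing with rapamycin does not by itself mean smaller differences.

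**Figure D3:**
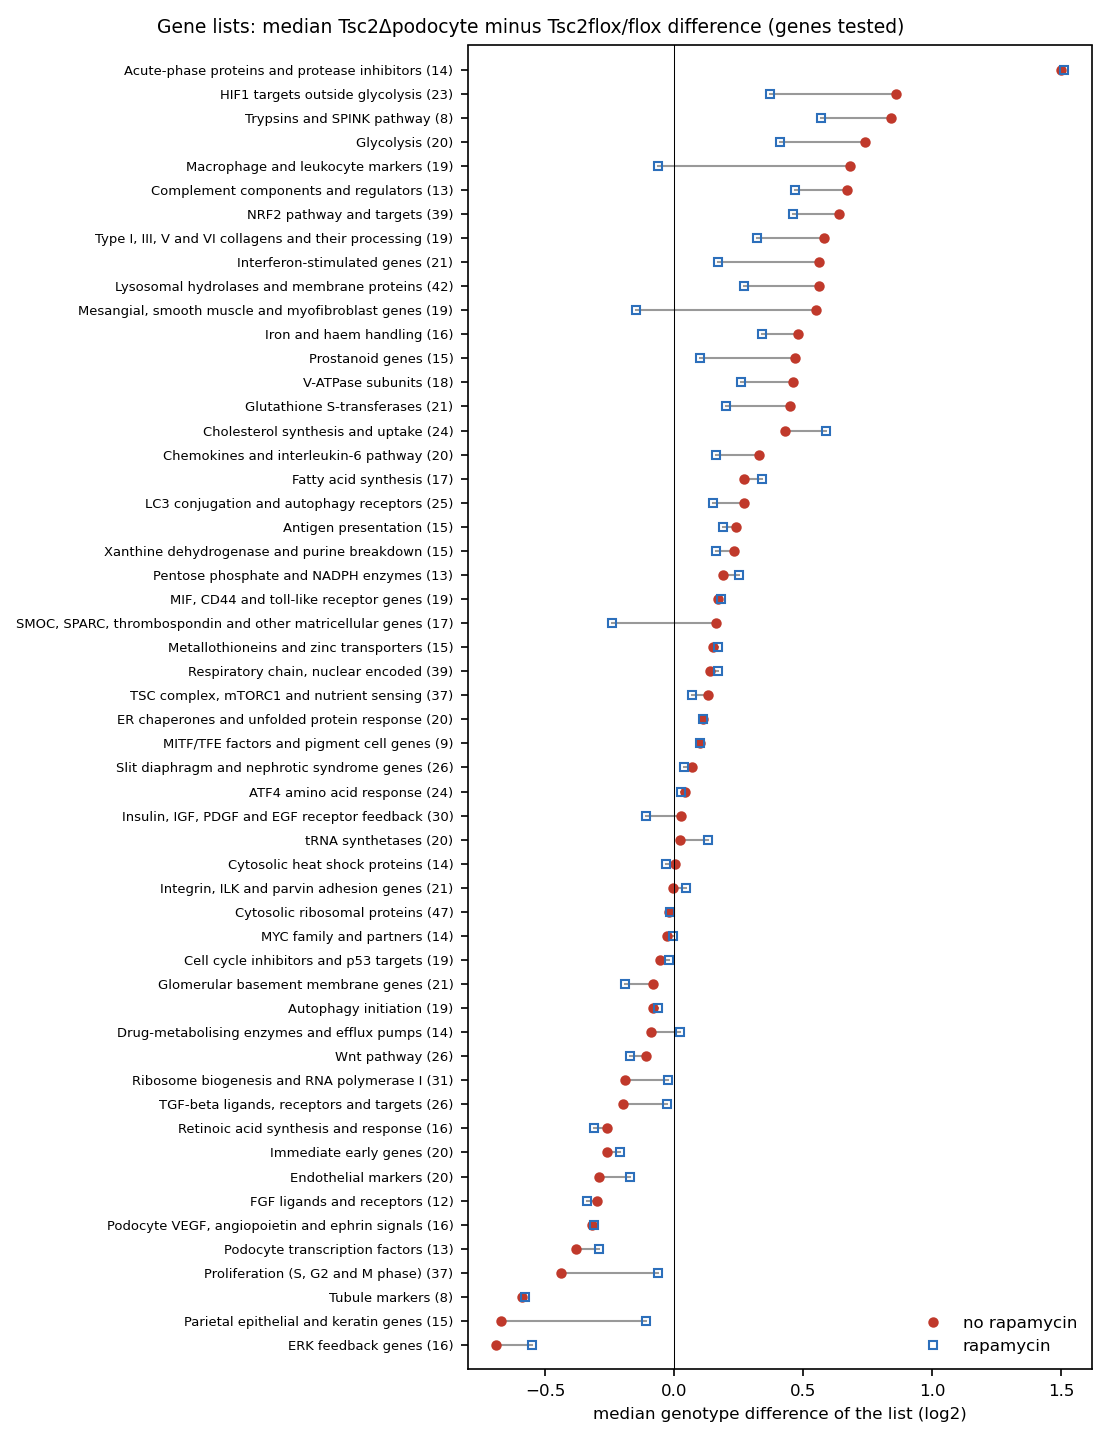
Median genotype difference (log2, Tsc2Δpodocyte minus Tsc2flox/flox) of each of the 54 gene lists without rapamycin (filled red circles) and with rapamycin (open blue squares), ordered by the untreated median, with the number of genes tested in brackets. HIF1 targets go from 0.86 to 0.37 and lysosomal genes from 0.56 to 0.27, whereas cholesterol synthesis goes from 0.43 to 0.59 and acute-phase proteins from 1.5 to 1.51.

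Genes of glucose use and of the hypoxia-inducible factor HIF1 had smaller differences with rapamycin, by their medians. The 23 HIF1 targets outside glycolysis had a median of 0.86 untreated, with 15 higher, and 0.37 with rapamycin, with 5 higher. Their interaction was below 0 in 20 of 23, with an unadjusted p under 0.05 in 6, a median of -0.41, and a range of that median from -0.51 to -0.25 as each array was left out. The 20 glycolysis genes had medians of 0.74 and 0.41, with 14 and then 11 higher and 17 of 20 interactions below 0. Tsc2Δpodocyte replicate 2 was the highest array for both lists, with a mean of 5.32 for glycolysis against 4.78 to 4.87 in the other replicates, and of 2.77 for HIF1 targets against 2.02 to 2.22. Without it the median interactions went from -0.34 to -0.20 for glycolysis and from -0.41 to -0.25 for HIF1 targets. Slc2a3, the glucose transporter GLUT3, had the smallest p of its list. It was at -3.18, -3.16, -3.33 and -3.09 in Tsc2flox/flox and -2.07, -1.92, -2.12 and -2.07 in Tsc2Δpodocyte. The treated levels were -2.72, -2.97, -2.41 and -2.48 in Tsc2flox/flox and -2.31, -2.01, -1.97 and -2.22 in Tsc2Δpodocyte. The genotypes were apart on both slides, by 1.14 and 0.51, and it was the Tsc2flox/flox level that lay higher on the treated slide. The interaction was -0.63, with an interval from -0.99 to -0.27 and an adjusted p of 0.611.

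Pkm, the pyruvate kinase gene, was at 5.78, 6.05, 5.97 and 5.76 in Tsc2flox/flox and 6.68, 7.10, 6.70 and 6.85 in Tsc2Δpodocyte. On the treated slide it was at 6.17, 5.96, 5.88 and 5.83 in Tsc2flox/flox and 6.45, 6.18, 6.27 and 6.31 in Tsc2Δpodocyte. Here the mean of Tsc2Δpodocyte was 6.83 on the untreated slide and 6.3 on the treated one, against 5.89 and 5.96 in Tsc2flox/flox, and the genotype difference went from 0.94 to 0.34 (interaction -0.60, interval -0.94 to -0.26, adjusted p 0.611). Gpi1, the enzyme that follows hexokinase, went from 0.74 to 0.31, and P4ha2, a collagen prolyl hydroxylase, from 1.47 to 0.43. Aldolase Aldoa (0.73 and 0.47) and phosphoglycerate kinase Pgk1 (0.51 and 0.38) were the 2 retained members of glycolysis. Slc2a3, P4ha2, Pkm and Gpi1, like every other gene named below that was neither retained nor one of the study's mTORC1 and autophagy genes, were chosen after their values were seen.

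Lysosomal genes also had smaller medians with rapamycin. The 42 lysosomal hydrolases and membrane proteins had medians of 0.56 and 0.27, with 23 higher untreated and 9 with rapamycin. Their interaction was below 0 in 32 of 42 and had an unadjusted p under 0.05 in 6, all below 0. The median interaction of -0.25 stayed between -0.32 and -0.18 as each array was left out. The 18 subunits of the V-ATPase, the pump that acidifies lysosomes, went from 0.46 with 12 higher to 0.26 with 3 higher, and 16 of 18 interactions were below 0. Their median interaction of -0.19 was -0.10 without Tsc2Δpodocyte replicate 2. Over all genes 10.3% were higher untreated and 6.20% with rapamycin. Psap encodes the precursor of the saposins, which help degrade sphingolipids. It was at 3.77, 3.27, 3.58 and 3.56 in Tsc2flox/flox and 4.38, 4.53, 4.32 and 4.36 in Tsc2Δpodocyte, and with rapamycin at 3.49, 3.96, 3.98 and 3.83 against 4.13, 3.90, 4.23 and 3.91. The treated genotypes overlapped and the untreated did not. Its difference went from 0.85 to 0.23, with an interaction interval from -1.01 to -0.23 and an adjusted p of 0.615. The protease gene Ctsb went from 1.06 to 0.57 and the pump subunit Atp6v1a from 0.77 to 0.35.

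Other lysosomal genes kept their step. The sialidase Neu1 was higher by 0.99 and 0.95, the heparan sulfate sulfamidase Sgsh by 0.70 and 0.73, and the dipeptidyl peptidase Ctsc by 0.98 and 1.03. All 3 were retained, as were the pump components Atp6ap2 (0.53 and 0.45) and Atp6v1c1 (0.50 and 0.39). Neu1 and Sgsh stayed retained under 24 of 25 alternatives, Atp6ap2 under 20, Ctsc under 17 and Atp6v1c1 under 13.

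Targets of NRF2, the factor that induces antioxidant and detoxifying enzymes, had smaller medians with rapamycin but many members still higher. The 39 genes of the list went from a median of 0.64, with 26 higher, to 0.46, with 18 higher, and none was lower on either slide. Of the 39 interactions 34 were below 0, 10 of them with an unadjusted p under 0.05, and the median of -0.25 stayed between -0.32 and -0.21 as each array was left out. Sulfiredoxin, Srxn1, was at 3.87, 3.71, 4.46 and 4.06 in Tsc2flox/flox and 6.16, 6.05, 6.56 and 6.44 in Tsc2Δpodocyte. After rapamycin it was at 4.07, 3.86, 3.76 and 3.95 in Tsc2flox/flox and 5.76, 5.29, 5.95 and 5.04 in Tsc2Δpodocyte. The genotypes were far apart on both slides, with every treated Tsc2Δpodocyte array below every untreated one. The difference was 2.28 and then 1.60, with adjusted p of 3.3e-05 and 0.000765, and the interaction of -0.67 had an interval from -1.28 to -0.07. Haem oxygenase Hmox1 went from 1.86 to 1.46 and catalase Cat from 1.06 to 0.58, and both passed on both slides. The cystine carrier Slc7a11 did so too, at 2.61 and 2.10. The quinone reductase Nqo1 was higher by 2.71 untreated, and its treated difference of 1.35 did not pass (adjusted p 0.0889). Gstp1 went from 0.56 to 0.23, and the 21 glutathione S-transferases from a median of 0.45 to 0.20, with 16 interactions below 0.

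The retained members of the NRF2 list, 8 in number, were G6pdx, Pgd, Txnrd1, Taldo1, Gclc, Fth1, Abcc1 and Nfe2l2 itself. G6pdx encodes glucose-6-phosphate dehydrogenase, which opens the pentose phosphate pathway and supplies NADPH. It was at 3.21, 3.57, 3.90 and 3.73 in Tsc2flox/flox and 4.41, 4.85, 4.61 and 4.74 in Tsc2Δpodocyte. Under rapamycin the levels were 3.82, 3.70, 3.28 and 3.49 in Tsc2flox/flox and 4.64, 4.42, 4.84 and 4.55 in Tsc2Δpodocyte. The step was 1.05 and 1.04, and the interaction of -0.0074 had an interval from -0.48 to 0.47. Pgd, the third enzyme of the pathway, was higher by 0.85 and 0.61, transaldolase Taldo1 by 0.69 and 0.59, and thioredoxin reductase Txnrd1 by 0.71 and 0.57. The ferritin heavy chain Fth1 was higher by 0.62 and 0.37, with an interval from -0.50 to -0.012 that left out 0 but stayed within 1.5-fold. Among 16 genes of iron and haem handling, 10 were higher and 1 lower untreated and 7 were higher with rapamycin. Fech, the last enzyme of haem synthesis (0.45 and 0.43), and Alas1, the first (0.48 and 0.57), were retained, although another probe of Alas1 gave an interaction of -0.38.

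The promoters of G6pdx and Txnrd1, retained members of the NRF2 list, and of Sgsh, a retained lysosomal gene, are shown as examples. They were picked among promoters that hold a match, and other candidate members without a match are not shown. They are RefSeq promoters of build GRCm38.p6, each a window around the transcript start, printed in the direction of the gene. Capitals mark TGACNNNGC, the core of the antioxidant response element that NRF2 binds, or in Sgsh CACGTG, the core bound by TFEB and other E-box factors. Both strands were searched, and CACGTG reads the same on both.
G6pdx, chrX:74428831-74429130, minus strand: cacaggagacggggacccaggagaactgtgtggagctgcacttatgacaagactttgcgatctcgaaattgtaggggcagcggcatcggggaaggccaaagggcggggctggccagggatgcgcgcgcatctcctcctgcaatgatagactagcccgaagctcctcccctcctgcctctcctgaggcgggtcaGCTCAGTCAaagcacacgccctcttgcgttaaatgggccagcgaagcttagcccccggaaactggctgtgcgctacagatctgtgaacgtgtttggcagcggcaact
Txnrd1, chr10:82858956-82859255, plus strand: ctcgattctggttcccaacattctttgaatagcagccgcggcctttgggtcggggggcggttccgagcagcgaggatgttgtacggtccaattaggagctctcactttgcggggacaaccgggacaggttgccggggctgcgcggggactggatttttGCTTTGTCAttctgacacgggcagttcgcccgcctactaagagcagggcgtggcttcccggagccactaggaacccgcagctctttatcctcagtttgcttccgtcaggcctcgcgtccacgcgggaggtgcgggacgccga
Sgsh, chr11:119355461-119355760, minus strand: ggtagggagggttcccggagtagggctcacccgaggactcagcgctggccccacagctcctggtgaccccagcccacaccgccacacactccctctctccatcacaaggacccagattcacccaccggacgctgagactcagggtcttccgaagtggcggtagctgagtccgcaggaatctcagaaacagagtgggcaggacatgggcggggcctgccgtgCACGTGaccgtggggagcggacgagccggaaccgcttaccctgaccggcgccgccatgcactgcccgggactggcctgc

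Of 31 tested NRF2 list genes with a promoter in the table, 12 (38.7%) held TGACNNNGC, against 16.6% of 11171 tested genes. Of 34 lysosomal genes 11 (32.4%) held CACGTG, against 11.4%. In the cholesterol list, 1 of 16 genes (6.25%) held TCACNCCAC, the sterol motif searched for, against 1.44%. A match is a description of these letters, and a missing match says nothing of the factor.

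Sterol genes did not come nearer 0, by their medians. The 24 genes of cholesterol synthesis and uptake had a median of 0.43 untreated, with 13 higher, and of 0.59 with rapamycin, with 19 higher. The interaction was above 0 in 22 of 24, with an unadjusted p under 0.05 in 2, and its median of 0.15 ranged from 0.062 without Tsc2Δpodocyte replicate 3 to 0.26 without Tsc2flox/flox replicate 1. The list held 6 retained members, among them Msmo1, Sc5d, Cyp51, Lss and Ebp. Msmo1, the sterol C4-methyl oxidase, was at 3.90, 4.33, 4.25 and 4.36 in Tsc2flox/flox and 4.87, 5.12, 4.57 and 4.84 in Tsc2Δpodocyte. The treated levels were 3.97, 4.21, 3.99 and 3.91 in Tsc2flox/flox and 4.61, 4.62, 4.85 and 4.59 in Tsc2Δpodocyte. The genotypes were apart on both slides by 0.64 and 0.65, with an interaction interval from -0.37 to 0.40. Sc5d, a late desaturase, was higher by 0.43 and 0.50, the lanosterol demethylase Cyp51 by 0.56 and 0.73, and the sterol isomerase Ebp by 0.28 and 0.53, although the other probe of Ebp gave an interaction of -0.16.

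Pmvk, phosphomevalonate kinase, had the smallest interaction p of the list. It was at 2.27, 2.51, 2.30 and 2.34 in Tsc2flox/flox and 2.46, 2.72, 2.31 and 2.38 in Tsc2Δpodocyte, and with rapamycin at 2.28, 2.15, 1.96 and 2.23 against 2.65, 3.01, 2.81 and 2.72. The untreated genotypes overlapped and the treated did not, with differences of 0.11 and 0.64 and an interaction interval from 0.20 to 0.87 (adjusted p 0.615). Insig1, which holds SREBP in the endoplasmic reticulum and is itself a sterol-responsive gene, was higher by 1.12 and 1.22, and the squalene epoxidase Sqle by 0.53 and 0.78. Of 17 fatty acid synthesis genes 7 were higher untreated and 3 with rapamycin, at medians of 0.27 and 0.34, and Acsl1 and Elovl1 were retained.

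**Figure D4:**
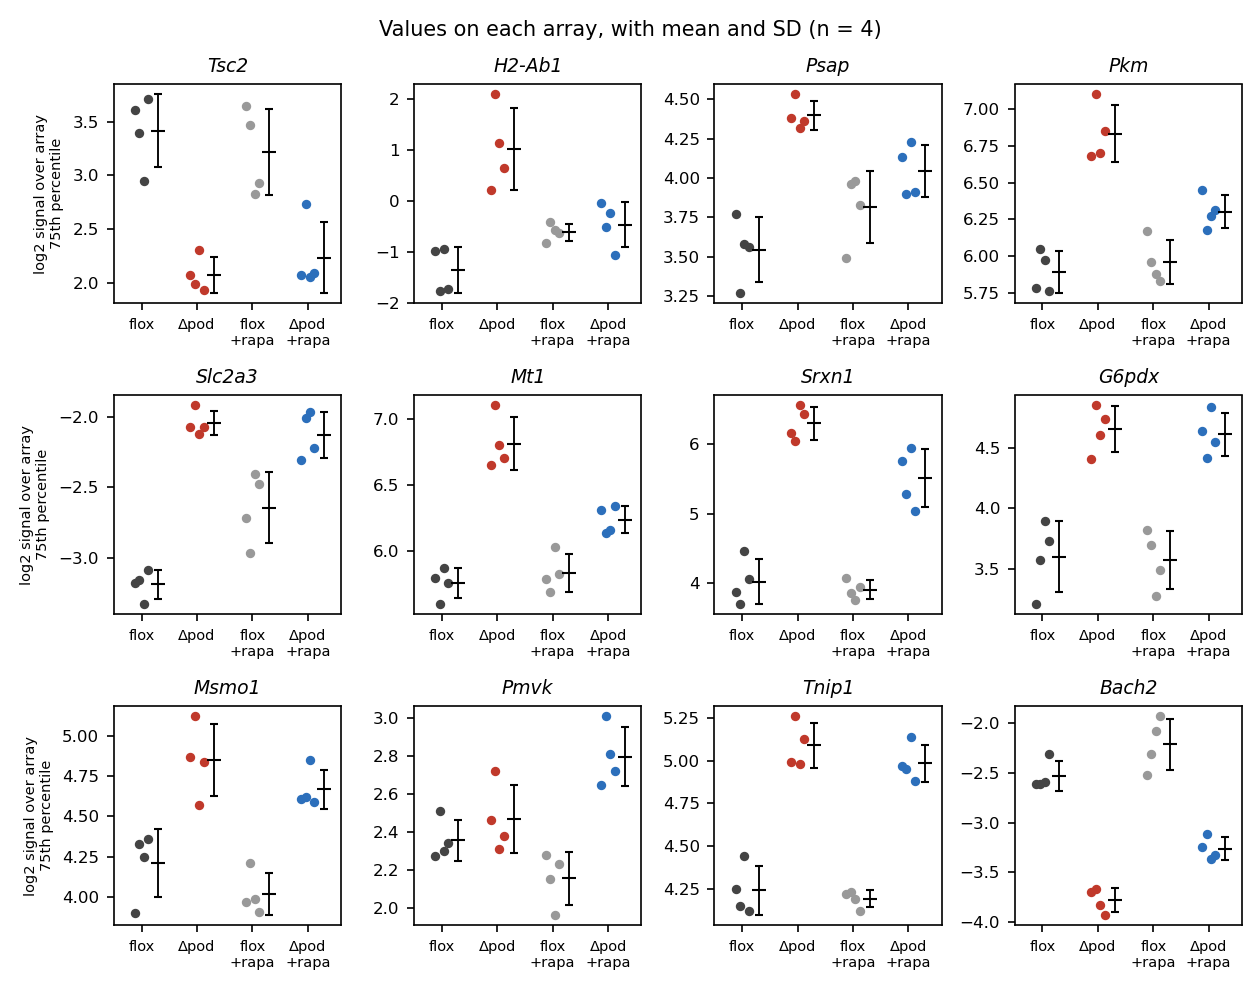
Log2 signal over the 75th percentile of the array for 12 genes on each of the 16 arrays (points), with the mean and SD of each group (n = 4) beside them. Pkm and Psap show a smaller genotype step with rapamycin (0.34 and 0.23 against 0.94 and 0.85), G6pdx, Msmo1, Tnip1 and Bach2 a similar one, and Pmvk a larger one.

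Genes that answer ERK signalling were lower in Tsc2Δpodocyte on both slides. Of 16 ERK feedback genes 10 were lower untreated and 8 with rapamycin, none was higher, and the medians were -0.69 and -0.55. The ERK inhibitor Spry2 was at 0.92, 0.70, 0.33 and 0.57 in Tsc2flox/flox and -0.44, -0.85, -0.16 and -0.40 in Tsc2Δpodocyte. On the treated slide it was at 0.95, 0.20, 0.34 and 0.76 in Tsc2flox/flox and -0.42, -0.57, -0.85 and 0.11 in Tsc2Δpodocyte. The genotypes were apart on both slides, by -1.09 and -0.99, and the interval of the interaction reached from -0.57 to 0.76. The ETS factor Etv4 had differences of -0.89 and -1.14, and Etv5, the retained member, of -0.39 and -0.54. The phosphatase gene Dusp6 passed untreated at -0.84 and not with rapamycin at -0.54 (adjusted p 0.148). Fosb (-0.86 and -0.82), the growth factor receptor Igf1r (-0.50 and -0.36), the ephrin Efnb1 (-0.82 and -0.70), the Notch target Hes1 (-0.70 and -0.66), the Wnt effector Tcf7l2 (-0.65 and -0.73) and the small heat shock protein Cryab (-0.58 and -0.68) were retained as lower. The semaphorin and VEGF co-receptor Nrp2 (0.60 and 0.71), the fibronectin receptor subunit Itga5 (0.62 and 0.62) and Fgfr2 (0.81 and 0.75) were retained as higher, Fgfr2 under only 8 of 25 alternatives.

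Some large genotype differences passed on both slides, with wide intervals. The prostaglandin D synthase Ptgds was higher by 4.85 and 5.36, and the interval of its interaction ran from -0.88 to 1.90. Mlana, a pigment cell gene, and Try5, a trypsin, were not well above background on any Tsc2flox/flox array of either slide. Mlana was at least 7.47-fold higher in Tsc2Δpodocyte untreated and at least 4.77-fold higher with rapamycin, and Try5 at least 10.1-fold and 6.48-fold, so no interaction is given for either. The 14 acute-phase proteins and protease inhibitors had medians of 1.5 and 1.51, with 8 and 6 higher. Serpina3n passed on both slides, with fitted differences of 2.61 and 3.85, and with rapamycin it was at least 3.39-fold higher, Tsc2flox/flox being below background. Xdh, xanthine dehydrogenase, was higher by 4.40 and 2.32. Its interaction of -2.08 had an interval from -3.45 to -0.71 and an adjusted p of 0.623, while its other probe gave -0.50.

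The immune lists differed in their median interactions. H2-Ab1, in the antigen presentation list, encodes a chain of MHC class II. It was at -0.98, -1.77, -0.94 and -1.73 in Tsc2flox/flox and 0.22, 2.09, 1.13 and 0.64 in Tsc2Δpodocyte. After rapamycin it was at -0.83, -0.42, -0.58 and -0.64 in Tsc2flox/flox and -0.04, -0.52, -0.24 and -1.07 in Tsc2Δpodocyte. The untreated genotypes were apart and the treated overlapped. The difference went from 2.38 to 0.15 and the interaction was -2.22 ± 0.48 (SE), with an interval from -3.26 to -1.19 and an adjusted p of 0.598, and its 4 probes gave -2.28 to -2.02. The complement component C2 went from 2.40 to 0.68. Of 13 complement genes 7 were higher untreated and 2 with rapamycin, and of 21 interferon-stimulated genes 5 and 0. The median interactions of these lists, -0.55 and -0.46, were -0.16 and -0.13 without Tsc2Δpodocyte replicate 2. The other immune lists had smaller medians: -0.079 for 15 antigen presentation genes (-0.16 to 0.026 as each array was left out), -0.0978 for 20 chemokine and interleukin-6 genes, and -0.16 for 19 genes of MIF, CD44 and toll-like receptors.

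Macrophage and leukocyte markers also had interactions below 0. All 19 tested members of that list had an interaction below 0, the median difference went from 0.68 to -0.062, 3 members were higher untreated and 0 with rapamycin. Cd68 was at 1.04, -0.20, 0.09 and 0.23 in Tsc2flox/flox and 1.00, 1.41, 1.32 and 1.54 in Tsc2Δpodocyte. Under rapamycin the levels were 0.48, 1.36, 1.57 and 1.49 in Tsc2flox/flox and 1.18, 1.41, 1.86 and 1.28 in Tsc2Δpodocyte. Untreated Tsc2flox/flox replicates 2 to 4 were the low arrays, and the others overlapped. The mean of the 12 markers fixed for these cells lay between -0.53 and 0.45 in Tsc2Δpodocyte and between -1.43 and -0.04 in Tsc2flox/flox. With rapamycin it lay between -0.76 and 0.29, and between -0.93 and 0.31. Within untreated Tsc2Δpodocyte the lowest of these means, -0.53, was in replicate 2, where H2-Ab1 was highest at 2.09 and C2 at 1.44. All 12 markers were well above background on all 16 arrays. Their part in the immune, lysosomal and other results was not tested, and in these cultures fewer cells of a type and less RNA per cell cannot be told apart.

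Mesangial and smooth muscle genes also had interactions mostly below 0. The 19 genes of that list went from a median of 0.55 to -0.15, with 5 higher and 1 lower untreated and 1 higher with rapamycin, and 15 interactions were below 0. Agtr1a, the angiotensin II receptor, went from 1.54 to -0.21, with an interval from -2.87 to -0.65 (adjusted p 0.615). The mean of the 7 markers lay between 3.68 and 4.02 in untreated Tsc2Δpodocyte and between 2.84 and 3.51 over the other 3 groups. The 19 genes of fibrillar and type VI collagens and their processing went from 0.58 to 0.32, and their median interaction of -0.27 was -0.10 without Tsc2Δpodocyte replicate 2. The share of these cells in the matrix results was not tested.

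Parietal epithelial and proliferation genes had medians below 0 without rapamycin that were nearer 0 with it. The 15 parietal and keratin genes had medians of -0.67 and -0.11, with 14 interactions above 0. In this list 3 members were lower untreated, and 2 were lower and 1 higher with rapamycin. The median interaction of 0.53 was 0.22 without either Tsc2Δpodocyte replicate 2 or Tsc2Δpodocyte + Rapamycin replicate 2 and 0.84 without Tsc2flox/flox + Rapamycin replicate 2. The 37 proliferation genes had medians of -0.44 and -0.064, with 36 interactions above 0. Of these, 1 was lower untreated and 0 with rapamycin. The mean level of the proliferation list was 1.84, 2.85, 2.50 and 2.28 in Tsc2flox/flox and 1.94, 1.44, 2.16 and 2.10 in Tsc2Δpodocyte. The treated levels were 2.48, 1.82, 1.85 and 1.98 in Tsc2flox/flox and 1.92, 2.07, 1.49 and 2.43 in Tsc2Δpodocyte. The groups overlapped on both slides, and the median interaction of 0.40 was 0.22 without Tsc2flox/flox replicate 2, the highest array.

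**Figure D5:**
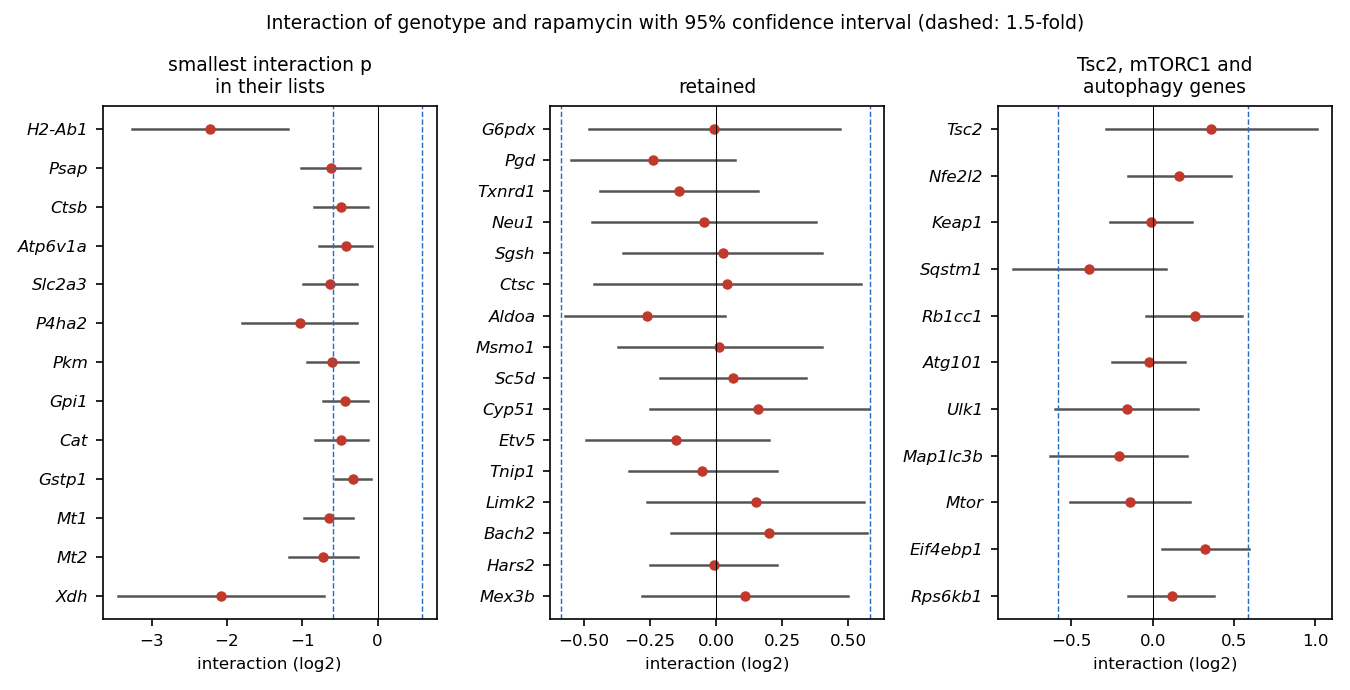
Interaction (log2, rapamycin genotype difference minus untreated genotype difference) with its 95% interval for genes with small interaction p in their lists, for retained genes, and for Tsc2, mTORC1 and autophagy genes, each panel with its own x axis. Dashed lines mark 1.5-fold, which the intervals of the retained genes do not cross. The first panel holds only chosen genes with interactions below 0, so the side on which its intervals lie follows from that choice. Genes above 0 with small p in their lists, such as Pmvk (0.53) and Bop1 (0.43), are not drawn. Over all genes 3.38% below 0 and 4.01% above 0 had an unadjusted p under 0.05 in limma.

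Genes of the pathway itself and of autophagy were read from 3 lists. Of 37 genes of the TSC complex, mTORC1 and nutrient sensing, 6 were higher and 3 lower untreated and 3 and 2 with rapamycin, and 22 interaction intervals lay within 1.5-fold. Over all genes 10.3% were higher and 9.20% lower untreated, and 6.20% and 4.97% with rapamycin, and 46.2% of intervals lay within 1.5-fold. The count of lower genes untreated and both counts with rapamycin were near these shares. Mtor had differences of 0.14 and 0.0022 and Rps6kb1, the S6 kinase, of -0.062 and 0.054. The other probe of Rps6kb1 gave an interaction of 0.52, against 0.12 for the probe shown. Eif4ebp1, the translation repressor that mTORC1 phosphorylates, differed by 0.25 untreated (adjusted p 0.0577) and was higher by 0.58 with rapamycin (adjusted p 0.00237). Its interaction of 0.32 had an interval from 0.06 to 0.59. Of 19 autophagy initiation genes 1 was lower on each slide and 15 intervals lay within 1.5-fold. That gene was Atg101, a retained member, at -0.24 and -0.26, both smaller in size than the 1.5-fold margin. It stayed retained under only 9 of 25 alternatives. In the list of autophagy receptors and LC3 conjugation, with 25 genes, 8 were higher untreated, and 6 were higher and 1 lower with rapamycin. Their medians were 0.27 and 0.15, and the median interaction of -0.11 was -0.016 without Tsc2Δpodocyte replicate 2. Ulk1 had differences of 0.015 and -0.14, Rb1cc1 of -0.21 and 0.049, and Map1lc3b of 0.38 and 0.17, none of which passed. The autophagy receptor Sqstm1 was higher by 1.11 and 0.72, with an interval from -0.86 to 0.083. Nfe2l2, which encodes NRF2, was retained at 0.33 and 0.49, and its repressor Keap1 had differences of 0.12 and 0.11, which did not pass.

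Functions near 0 on both slides included the cytosolic ribosomal proteins. Of 47 cytosolic ribosomal protein genes 0 passed in either comparison (medians -0.019 and -0.015), and 46 intervals lay within 1.5-fold. The 31 genes of ribosome biogenesis and RNA polymerase I had medians of -0.19 and -0.026. Of these, 1 was higher and 3 lower untreated, the latter near the 9.20% that were lower over all genes, and 0 passed with rapamycin. Their interaction was above 0 in 26, with a median of 0.15 that ranged from 0.10 to 0.20 as each array was left out. The 39 nuclear genes of the respiratory chain kept a small difference, with medians of 0.14 and 0.17. Of these, 9 were higher untreated and 8 with rapamycin, and 0 were lower. Their mean level was 5.25 to 5.36 in Tsc2Δpodocyte against 5.10 to 5.19 in Tsc2flox/flox untreated. With rapamycin it was 5.18 to 5.28 against 5.04 to 5.10. The interaction interval lay within 1.5-fold for 36 of them, and Ndufs8 and Sdhc were retained. The 26 slit diaphragm and nephrotic syndrome genes had medians of 0.07 and 0.037, but only 7 of their intervals lay within 1.5-fold, so changes beyond 1.5-fold lie within the error of the others.

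Several other genes with a small unadjusted interaction p were again chosen after their values were seen, and none passed the adjusted threshold. Aldh2, mitochondrial aldehyde dehydrogenase, differed by 0.33 untreated and by -0.29 with rapamycin (interval -0.89 to -0.35, adjusted p 0.598). Brpf1, a scaffold of histone acetyltransferases, differed by -0.44 and 0.12 (interval 0.33 to 0.79, adjusted p 0.598). The metallothionein Mt1 was at 5.80, 5.60, 5.87 and 5.76 in Tsc2flox/flox and 6.65, 7.10, 6.80 and 6.70 in Tsc2Δpodocyte. On the treated slide it was at 5.79, 5.69, 6.03 and 5.83 in Tsc2flox/flox and 6.31, 6.14, 6.16 and 6.34 in Tsc2Δpodocyte. The genotypes were apart on both slides, with the treated Tsc2Δpodocyte arrays between the untreated ones and the controls. Its difference went from 1.05 to 0.40 and that of Mt2 from 0.89 to 0.17. Their list of 15 metallothioneins and zinc transporters did not share this step, with medians of 0.15 and 0.17, 5 and then 3 members higher, 8 interactions below 0 and 7 above, and a median interaction of -0.012. Sema5a and Ugt1a6b, with the smallest p of any genes, were dim: in untreated Tsc2flox/flox neither was well above background, and the untreated difference was at least 1.65-fold for Sema5a and at least 2.15-fold for Ugt1a6b. With rapamycin Ugt1a6b was below background in both genotypes, so no fold was given.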

How the data were processed

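Each of 16 one-colour Agilent mouse arrays was read out by the authors with Agilent Feature Extraction 10.7.3.1, which gave background-subtracted intensity per spot, as deposited. The deposited log2 values, made by the authors in steps not stated, have array medians that differ from 0 and served as an alternative. Of 59305 non-control spots, repeats were averaged to 56605 probes without 1344 outlier spots, and 32994 probes were matched to 22911 genes by RefSeq accession. No spot was saturated. Values were log2 intensity minus the array's 75th percentile (349 to 468). The number of arrays limits the precision. The test took probes that were well above background in every array of some group (27579, of which 20384 matched 14094 genes).

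Group means were fitted with limma 3.58.1 (R 4.3.3, data.table version 1.17.8) and Benjamini-Hochberg adjustment, and the code was tested on simulated data. Intervals are 95% and not adjusted. Lists used each gene's brightest probe. Within groups arrays correlated at 0.98 to 0.99. The named genes were those of the study's mTORC1, NRF2 and autophagy text, up to 3 retained genes a list and 8 overall. No called interaction had a gene to name. All other genes named were chosen after their values were seen. Members and lists were chosen with earlier results of these data known. Alternatives were quantile normalization, normexp on the median signals, other filters, the deposited values, other priors, blocks, fold thresholds, an unmoderated linear model, and leaving out each array. Single values of a few genes are not reported here.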

Additional observations from a re-analysis of the deposited data

Results flagged for a closer look

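The probe of AK148502 had different genotype differences without and with rapamycin, with an interaction of -1.35 on the log2 scale. In 396 groups of 4 arrays, over the named genes and marker means, 18 had an array far from the other 3 by Dixon's test, and chance alone gives about 1 in 20. In Tsc2flox/flox these arrays were at -6.41 for Sema5a, 6.03 for Sqstm1, 4.81 for Eif4ebp1, 3.80 for Atp6v1a, -2.31 for Bach2 and -2.30 for Irak4. In Tsc2Δpodocyte they were at 6.19 for Mt2, 2.59 for Atp6v1c1 and 4.96 for Dusp6. In Tsc2flox/flox + Rapamycin they were at 2.12 for Rb1cc1 and 2.19 for Etv5. In Tsc2Δpodocyte + Rapamycin they were at 2.78 for Brpf1, 2.73 for Tsc2, 3.73 for Ulk1, 6.31 for Map1lc3b, 4.58 for Alas1, 4.85 for Msmo1 and 2.22 for Sc5d.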

How the results depend on the processing

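The interaction was called for 1 probe, and for 0 under quantile normalization, no filter on dim probes, the filter on all 16 arrays, the deposited values, the trended and robust prior, and the replicate block. It was called for 35 probes under the normexp background correction, with 14 genes above 0 and 6 below 0, of which 2 were smaller, 18 turned and 0 larger with rapamycin. The cause was not tested. Leaving out 1 array gave 0 to 3 probes, 0 to 2 genes above 0 and 0 to 1 below 0, with 0 to 1 smaller, 0 to 1 turned and 0 to 1 larger. The slide as a block and the unmoderated linear model gave 1 probe, as did the 2-fold threshold and no fold threshold. The adjusted p of AK148502 was 0.0526 with the deposited values, 0.122 with normexp, 0.13 without a filter, 0.177 with the replicate block, 0.205 with quantile normalization and 0.45 with the trended prior. Its interaction was -0.39 with normexp and between -1.42 and -1.22 under every other alternative run.

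Retained genes numbered 513, and 141 without a filter, 415 with the replicate block, 620 with the trended prior, and 248 to 566 when 1 array was left out. Leaving out an array leaves fewer samples, and dropping the filter adds probes to the adjustment; beyond that the cause was not tested. Of the 48 retained genes named, 24 stayed so without a filter, 25 under normexp, 39 with the replicate block, and 25 to 40 when 1 array was left out, with 25 without Tsc2Δpodocyte + Rapamycin replicate 1. Replicate numbers were shared between groups. The deviations of arrays with the same number had a median r of -0.0326 over 24 pairs, with a range from -0.333 to 0.464. Whether some pairs share more than the number was not tested. Of 17 lists with a median interaction of at least 0.2 in size, the sign held in all 442 values over 26 settings but 1, that of trypsins and the SPINK pathway, which was 0.35 under the filter on all 16 arrays.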
